A study of Arabidopsis thaliana with 12 samples.

Results

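The genes described here had deposited intensities at the low end of an array of Arabidopsis thaliana roots. They were selected on measured values: each belongs to a probe that is annotated with exactly 1 gene and whose deposited intensity was 0.1 or less in all 12 samples. This rule took 47 of the 692 single-gene probes (6.79%), out of 3439 probes in all, and 1 histone H3 gene that also met it was left out. The highest value of any of the 47 in any sample was 0.0973, against sample medians over all probes of 0.476 to 0.505 in aap3 and 0.490 to 0.536 in WT. What the rule used is not a finding, so the intensities of these genes are described without a test.

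Total RNA from roots was measured on an expression array in 6 samples of aap3, a mutant without the amino acid transporter protein AAP3, and in 6 wild-type (WT) samples. Both groups are of ecotype Wassilevskija, and the labels give no plant age, growth condition or treatment and name no second allele. Replicates are numbered 1 to 6 in each group, and the labels do not say whether they came from separate plants or pools. Whether the 6 samples of a group are independent is therefore not known, and the limma counts below treat them as if they were. The values are linear intensities on an unstated scale, so the order of 2 probes' intensities is not read as an order of their RNA levels. Of 132 genes in 9 lists of floral, seed, pollen, meiosis, leaf, root, amino acid permease, defence and housekeeping genes, 1 had a single-gene probe and 0 were among the 47, so these lists gave no check of the root label. Among other single-gene probes, the photosynthesis genes PSBW, LHB1B2 and PSAN, which are known chiefly from green tissue, were above the sample median in all 12 samples. The photosynthesis gene PIFI was below it in all 12, and 4 photosynthesis genes are among the 47. The genes outside the rule were picked after their values were seen, so they are no check of the root label either. AAP3 had no single-gene probe either.

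A listed value of 0 on such an array is not a measure of absent RNA. No detection limit came with the values, and the limit of 0.1 belongs to the rule alone. Several of the 47 genes encode parts that plant cells of all organs are known to need, such as a subunit of mitochondrial complex I and a subunit of the Golgi tethering complex. These genes are therefore called listed at 0, or at 0.1 or less, and not silent. Of the 47 genes, 8 are also named in the annotation of a probe with several genes, whose values are not described here. In bulk tissue, fewer cells of a type and less RNA per cell cannot be told apart.

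As background, roots hold plastids that do not photosynthesise, and nuclear genes for thylakoid proteins are known chiefly from leaves and other green organs. Plastids of roots still make fatty acids, nucleotides and proteins, so genes for those tasks act in both organs. Mitochondria, the cytoskeleton and the secretory pathway serve every cell. The 47 genes span all of these. The role groups below were assigned to these 47 genes alone, so the size of a group has no share over all probes beside it.

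Of the 47 genes, 19 were listed at exactly 0 in all 12 samples and 28 were above 0 in at least 1 sample. The median over the 47 of each gene's highest value was 0.015. Among the 28, 11 were above 0 in 1 or 2 samples, 4 in 3 to 5 samples and 13 in 6 samples or more. Only AT5G19150 and AT3G43610, among the 47, were above 0 in all 12. Without a detection limit, neither a 0 nor a low reading above 0 shows whether a gene was detected. The set, with 13 genes above 0 in 6 samples or more, is therefore not labelled as undetected.

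**Figure D1:**
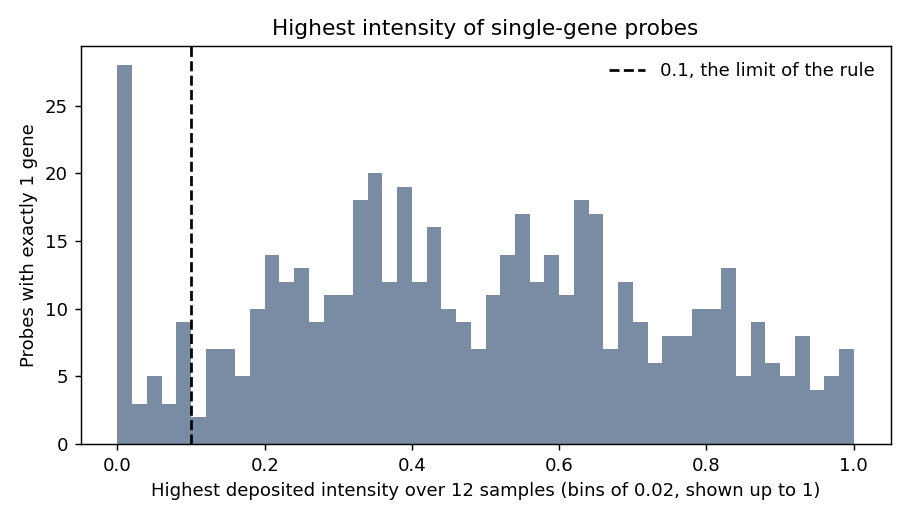
The histogram counts the 692 single-gene probes by their highest deposited intensity over 12 samples, on a linear axis with an unstated scale, up to 1 and in bins of 0.02. The first bin holds 28 probes, 27 of them among the 47 genes. The dashed line marks the limit of the rule, with 9 probes between 0.08 and 0.1 just left of it and 2 between 0.1 and 0.12 just right of it.

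By highest value, 9 single-gene probes lay between 0.08 and 0.1, 2 between 0.1 and 0.12 and 7 between 0.12 and 0.14. Just inside the limit of 0.1 lay AT5G19150 with a highest value of 0.0973, AT1G29040 with 0.0943 and AT2G27680 with 0.0903. Just outside it lay AT4G22650 with 0.101, AT2G38070 with 0.101, AT5G05330 with 0.126, AT4G37230 with 0.129 and AT1G78790 with 0.129. Of these 5, AT5G05330 was above 0 in 3 aap3 and 2 WT samples, and the other 4 were above 0 in all 12 samples.

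Genes of the photosynthetic apparatus made up 4 of the 47. AT5G52970, which encodes a protein of the thylakoid lumen, was listed at 0 in all 12 samples. CCB3 (AT5G36120), a factor for cofactor assembly of the cytochrome b6f complex, was above 0 only in WT replicate 2, at 0.011. AT5G13410, an FKBP-type peptidyl-prolyl isomerase of the lumen, was above 0 only in aap3 replicate 3, at 0.0046.

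The fourth, AT1G76450, encodes a protein of the PsbP family, which is named for a subunit of the oxygen-evolving complex. It read 0.0294, 0, 0.0101, 0.0681, 0.0724 and 0.0834 in aap3 replicates 1 to 6, against 0, 0, 0.0383, 0, 0.022 and 0.0024 in WT replicates 1 to 6. The aap3 value was the higher in 4 replicate pairs and the WT value in 1, both were 0 in the other pair, and the groups overlapped. Other photosynthesis genes lay outside the rule by very different margins. The photosystem II subunit gene PSBW lay between 25.7 and 32.1 in aap3 and between 17.2 and 32.6 in WT. The light-harvesting gene LHB1B2 lay between 8.58 and 18.6 in aap3 and between 4.02 and 12.5 in WT. The photosystem I subunit gene PSAN lay between 2.94 and 3.89 in aap3 and between 2.45 and 3.73 in WT. PIFI, a gene for a plastid protein tied to electron transport, lay near the limit, between 0.153 and 0.197 in aap3 and between 0.0629 and 0.213 in WT. These 4 were picked for mention after their values were seen, and other such genes on the array are not described here.

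A set of 7 genes serves translation and protein quality, mostly in organelles. Of these, 4 were at 0 throughout: AT5G49840, a ClpX-type chaperone subunit of the Clp protease, AT1G18440, a peptidyl-tRNA hydrolase that frees stalled chains from tRNA, AT5G19370, with a rhodanese and a peptidyl-prolyl isomerase domain, and AT1G35340, with a domain of the Lon protease. AT1G12800, an RNA-binding protein with an S1 domain, was above 0 in 4 aap3 and 2 WT samples, up to 0.0518 in aap3 and 0.0586 in WT.

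The other 2 of this set, and 1 signalling gene, were above 0 in a single replicate number and there in both genotypes. AT5G65220, the plastid ribosomal protein of the L29 family, read 0.0804 in aap3 replicate 4 and 0.0601 in WT replicate 4 and 0 in the other 10 samples. AT5G46420, a RimM-type factor for maturation of the small ribosomal subunit, read 0.0193 in aap3 replicate 6 and 0.0391 in WT replicate 6 and 0 elsewhere. ILA (AT1G64790), a HEAT-repeat protein related to the translation regulator GCN1 and known from immunity, read 0.0265 in aap3 replicate 6 and 0.0368 in WT replicate 6 and 0 elsewhere. Of the 5 members above 0 in exactly 2 samples, these 3 had both readings in an aap3 and a WT sample of the same number, as had 32 of the 41 probes of the whole table above 0 in exactly 2 samples. The genes were singled out for this pattern, which is a description.

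Enzymes and other proteins of metabolism were the most numerous group, with 15 genes, of which 5 were at 0 in every sample. These were UPP (AT3G53900), the uracil phosphoribosyltransferase of pyrimidine salvage, AT3G06200, a guanylate kinase, AT5G16230, an acyl-carrier-protein desaturase that puts the first double bond into fatty acids, AT1G10310, a reductase of pterin aldehydes, and AT1G32190, an alpha/beta hydrolase. Nucleotide salvage and fatty acid desaturation are tasks of plastids in roots as well as in leaves.

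Among the other 10 metabolic genes, 3 were above 0 in a single genotype. AT4G02580, the 24-kDa subunit of mitochondrial complex I, read 0.015 in aap3 replicate 1 and 0 in the other 11 samples. AT5G38360, an alpha/beta hydrolase, read 0.0209 in WT replicate 5 and 0.0405 in WT replicate 6. AT1G20130, a GDSL-type lipase, read 0.0066 in WT replicate 1 and 0.002 in WT replicate 5. Each was above 0 in at most 2 of the 6 samples of its genotype.

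AT5G39410, of the saccharopine dehydrogenase family, read 0.0894, 0, 0.0808, 0.0686, 0.0569 and 0.0326 in aap3 replicates 1 to 6, against 0.0352, 0, 0.0094, 0.0118, 0 and 0 in WT replicates 1 to 6. The aap3 value was the higher in 5 replicate pairs, both values were 0 in the pair of replicate 2, and the groups overlapped because of that 0 and the value of aap3 replicate 6. AT2G27680, an aldo-keto reductase, was above 0 in aap3 replicates 3, 4 and 5 at 0.0308, 0.0047 and 0.0903, against 0.009 in WT replicate 5 alone.

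PLIP1 (AT3G61680), a plastid lipase known from seed oil formation, read 0.0129, 0.0504, 0.0433, 0.0768, 0 and 0.0269 in aap3 replicates 1 to 6, against 0.0043, 0.0559, 0.0628, 0.0266, 0.05 and 0.0327 in WT replicates 1 to 6. The WT value was the higher in 4 pairs and the groups overlapped almost fully. AT4G39230, a reductase related to enzymes of lignan synthesis, was above 0 in 4 aap3 samples, up to 0.0222, and in 4 WT samples, up to 0.0619. AT5G14590, the mitochondrial NADP-dependent isocitrate dehydrogenase, was above 0 in 3 aap3 samples, up to 0.0232, and in 3 WT samples, up to 0.0693, in replicates 2, 3 and 5 of both genotypes. AT1G21350, of the thioredoxin superfamily, was above 0 in 3 aap3 samples, up to 0.0499, and in 1 WT sample, at 0.0329.

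A pair of neighbouring genes on chromosome 5 had readings above 0 in 11 and 12 of the samples. AILP1 (AT5G19140) belongs to a family named for induction by aluminium, and AT5G19150 encodes the dehydratase that repairs hydrated NADH and NADPH. Their annotated spans overlap in the TAIR10.1 gene table, and whether a probe reads both genes was not tested.

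AILP1 read 0.0875, 0.0114, 0.0495, 0.0751, 0.0462 and 0.0527 in aap3 replicates 1 to 6, against 0.0139, 0, 0.0002, 0.0235, 0.0384 and 0.0175 in WT replicates 1 to 6. The aap3 value was the higher in all 6 pairs, and the groups overlapped through aap3 replicate 2. It was the only one of the 47 genes to be higher in aap3 in all 6 pairs, while 7.21% of all 3439 probes were. No member was higher in WT in all 6 pairs, while 20.6% of all probes were. A gene with both values at 0 in any pair cannot be higher in all 6. That held for most of the 47, including the 19 at 0 in all samples, so the rule nearly fixed both counts. These pair counts use deposited intensities, and the aap3 sample medians were the lower ones.

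AT5G19150 read 0.0973, 0.0807, 0.0608, 0.069, 0.0826 and 0.0897 in aap3 replicates 1 to 6, against 0.0498, 0.0539, 0.0642, 0.0813, 0.0753 and 0.0538 in WT replicates 1 to 6. The aap3 value was the higher in 4 pairs, or in 5 after division by the sample median. For the other 46 genes this division changed no pair count. In 0 of the 47 genes did the ranges of the groups fail to overlap, against 5.38% of all probes. Ranges that both reach 0 must overlap, and most of the 47 had a 0 in both groups. The rule therefore nearly fixed this count, and it says little about the genes.

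**Figure D2:**
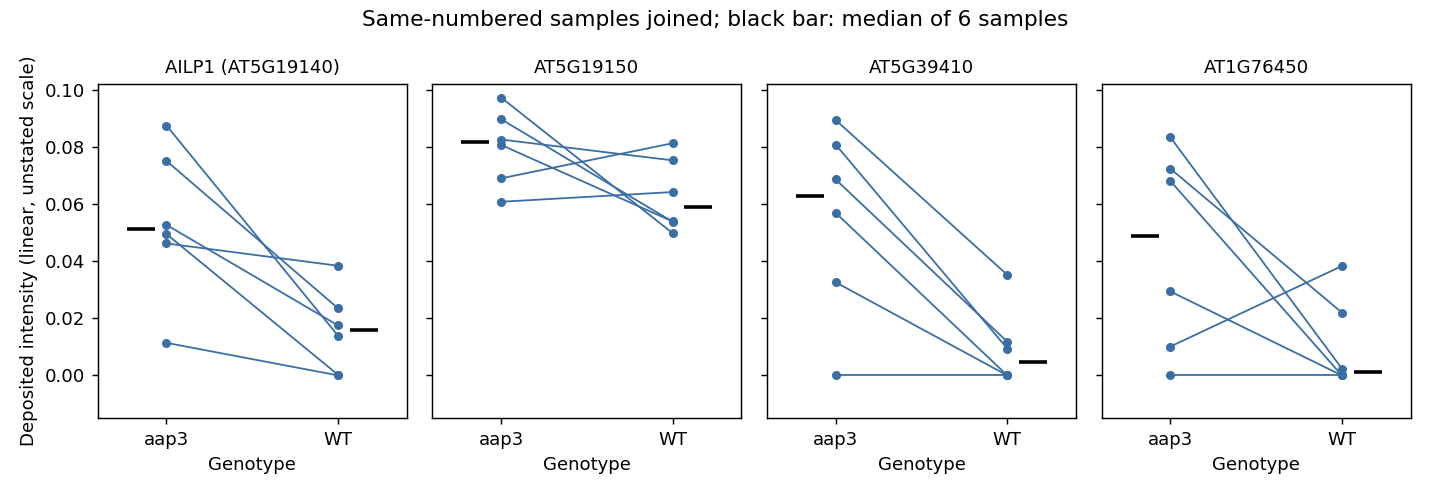
Deposited intensity (linear, unstated scale) of AILP1, AT5G19150, AT5G39410 and AT1G76450, with a point per sample. Same-numbered samples are joined, and a black bar marks the median of 6. All 4 have the higher median in aap3, were picked with their values known and do not stand for the set. Of the 28 genes above 0 in any sample, 16 had the higher mean in aap3 and 12 in WT. The medians were 0.0511 in aap3 and 0.0157 in WT for AILP1, 0.0817 in aap3 and 0.0591 in WT for AT5G19150, 0.0628 in aap3 and 0.00468 in WT for AT5G39410, and 0.0487 in aap3 and 0.00118 in WT for AT1G76450, and in all 4 the genotypes overlap.

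Genes of cell structure and traffic numbered 4. AT1G73430, a subunit of the conserved oligomeric Golgi complex that tethers vesicles, was at 0 in all samples. AT3G43610, a component of the gamma-tubulin complex that nucleates microtubules, was above 0 in all 12 samples, at 0.0735, 0.0852, 0.0248, 0.0376, 0.0164 and 0.0789 in aap3 replicates 1 to 6, against 0.0389, 0.0432, 0.0358, 0.0247, 0.0439 and 0.0423 in WT replicates 1 to 6. The WT values lay within the range of the aap3 values.

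IQD22 (AT4G23060), a calmodulin-binding protein of the IQ-domain family, was above 0 in 5 aap3 samples, up to 0.086, and in 4 WT samples, up to 0.0619. The WT value was the higher in 4 pairs and the aap3 value in 1. AT2G45500, an AAA-type ATPase, read 0.017 in aap3 replicate 5, against 0.013 in WT replicate 5 and 0.001 in WT replicate 1, and 0 elsewhere.

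Signalling and defence held 6 genes, counting ILA and AILP1. IAA31 (AT3G17600), a member of the Aux/IAA family of auxin response repressors, and AT1G66090, a disease resistance gene of the TIR-NBS class, were at 0 throughout. AT5G25510, a regulatory B subunit of protein phosphatase 2A, was above 0 only in WT replicate 5, at 0.0265. AT1G67820, a protein phosphatase of type 2C, read 0.0052 and 0.017 in aap3 replicates 1 and 5, against 0.0045 in WT replicate 6.

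Another 3 genes encode a nuclear or WD40-type protein. AT5G63460, with a SAP domain found in DNA-binding proteins, was at 0 throughout. AT1G05860, related to a subunit of the INO80 chromatin remodeller, was above 0 in 4 aap3 samples, up to 0.0541, and in 2 WT samples, up to 0.0409. AT1G24530, a WD40-repeat protein, was above 0 in 4 aap3 samples, up to 0.0443, and in 4 WT samples, up to 0.0544.

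For the last 8 genes no role is given here. AT5G25990, AT5G48270, AT3G50350, AT4G15790 and AT1G68160 were at 0 in all samples. AT1G29040 was above 0 in 3 aap3 samples, at 0.0207, 0.0943 and 0.0064 in replicates 2, 5 and 6, and in all 6 WT samples, between 0.0183 and 0.0539. The WT value was the higher in 5 pairs, but the highest value of all was that of aap3 replicate 5. AT1G07970 was above 0 only in WT replicate 5, at 0.0024, and AT3G47080 only in aap3 replicate 1, at 0.0192.

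**Figure D3:**
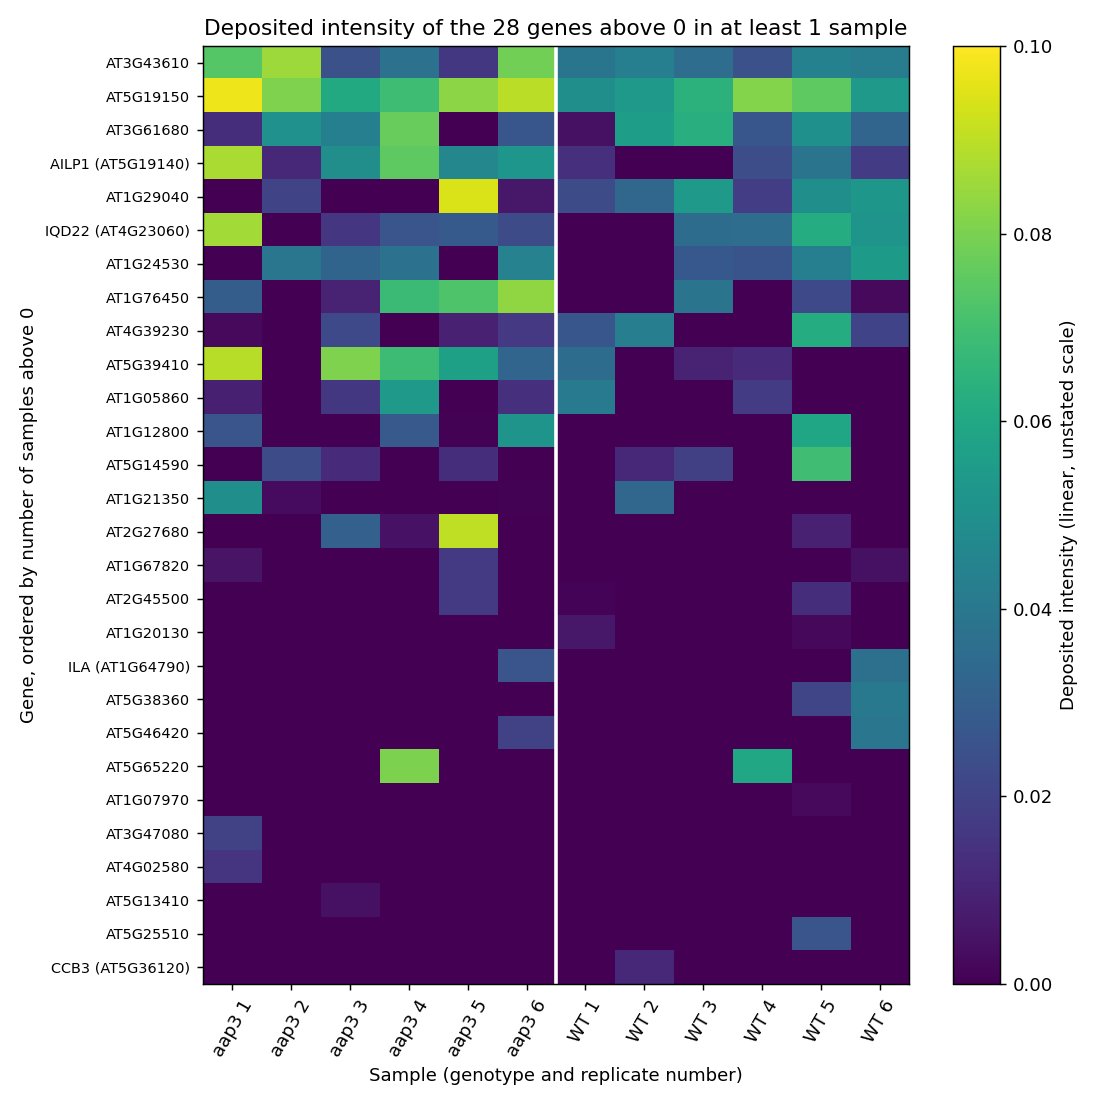
Heat map of the deposited intensity (linear, colour scale 0 to 0.1) of the 28 genes above 0 in at least 1 sample, with aap3 replicates 1 to 6 left of the white line and WT replicates 1 to 6 right of it. The top rows, AT3G43610 and AT5G19150, are above 0 in all 12 samples, and the lowest rows are genes with a single sample above 0.

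Above 0 in 1 genotype only were 8 of the 47 genes, 3 in aap3 and 5 in WT. AT5G13410, AT4G02580 and AT3G47080 were above 0 in aap3 only, and CCB3, AT5G25510, AT1G07970, AT5G38360 and AT1G20130 in WT only. Over the whole table, 0.669% of probes were above 0 in aap3 only and 0.523% in WT only, and all of these 41 probes stayed at 0.1 or less, so the rule itself gathers such probes. None of the 8 genes was above 0 in more than 2 samples, and over all probes no more than 3 samples carried such a pattern. The highest of these 8 genes' readings was the 0.0405 of AT5G38360 in WT replicate 6. At these levels a gene above 0 in 1 genotype only is a description of 1 or 2 samples.

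Summed over the 47 genes, 75 of 282 values were above 0 in aap3 (26.6%) and 69 of 282 in WT (24.5%). The number of genes above 0 per sample was 14, 8, 13, 12, 13 and 15 in aap3 replicates 1 to 6, against 10, 8, 10, 10, 17 and 14 in WT replicates 1 to 6. It was higher in aap3 in 4 pairs, higher in WT in 1 and equal in 1. The ranges overlapped, from 8 to 15 in aap3 and from 8 to 17 in WT.

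Over the whole table, replicates 5 and 6 had fewer probes at exactly 0 than replicates 1 to 4 in both genotypes, a split made after the values were seen. They had 160 and 158 probes at exactly 0 in aap3 and 159 and 167 in WT, while replicates 1 to 4 had 176 to 194 in aap3 and 176 to 199 in WT. The number of the 47 genes above 0 was 13 to 17 in replicates 5 and 6 and 8 to 14 in replicates 1 to 4, so these ranges overlapped. The labels do not say what sets these replicates apart, and its part in the readings of single genes was not tested.

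**Figure D4:**
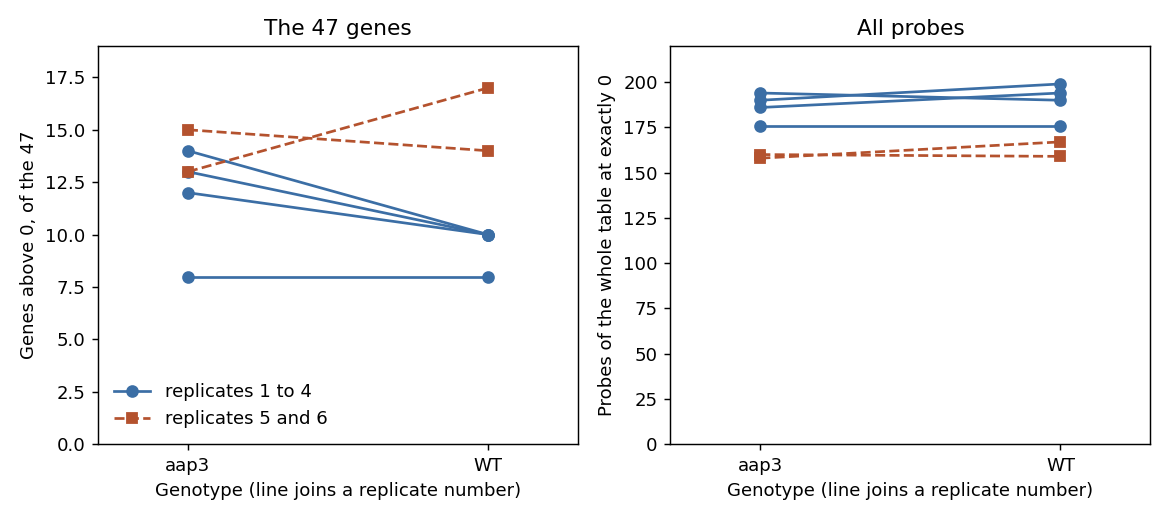
Left, the number of the 47 genes above 0 in each sample; right, the number of all 3439 probes at exactly 0; lines join same-numbered aap3 and WT samples. Replicates 5 and 6 (squares, dashed) have at most 167 probes at 0, and replicates 1 to 4 (circles) at least 176.

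Readings above 0 recurred more often in samples of a shared number. Of the cases where a gene was above 0 in at least 1 of an aap3 and a WT sample with the same number, it was above 0 in both in 60% (54 of 90 cases, over 6 sample pairs). For aap3 and WT samples with different numbers this share was 42.9% (216 of 504, over 30 sample pairs). It was 48.2% between 2 aap3 samples and 42.0% between 2 WT samples. Within a genotype it was 50% (48 of 96) between replicates 1 and 2, 3 and 4, or 5 and 6. Between other replicates of a genotype it was 44% (176 of 400). Whether such replicates share a source was not tested. The cases share genes and samples, so these shares are a description.

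In the fit over all probes with limma, 172 of 3439 (5%) had an adjusted p under 0.05 between aap3 and WT, and 587 did with the replicate number as a block. Of the 47 genes 0 were called in either fit, and 0 had an unadjusted p under 0.05 in the limma fit without the block. This says nothing about them, because 46 of the 47 lay at the floor of the fit in all 12 samples. The floor was 0.2 times the sample median. AT5G19150 lay above it in 1 sample.

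By locus name, 34 of the 47 genes (72.3%) lie on chromosomes 1 and 5, against 281 of 642 other single-gene probes with a locus (43.8%). Chromosomes 1 and 5 held 17 members each, chromosome 3 held 7, chromosome 4 held 4 and chromosome 2 held 2. The members made up 9.83% of the single-gene probes of chromosome 1 and 12% of those of chromosome 5, against 1.61% of those of chromosome 2. These shares carry no test. The annotated span of 16 members (34.0%) overlaps another gene in the TAIR10.1 table, as do those of 224 other single-gene probes (34.9%).

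**Figure D5:**
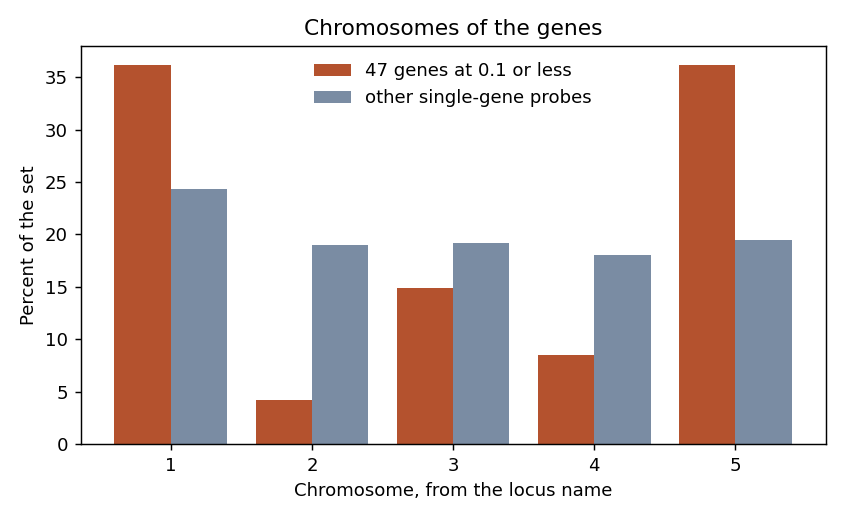
Bars give the percent of the 47 genes and of the 642 other single-gene probes on each chromosome, read from the locus name. Chromosomes 1 and 5 each hold 36.2% of the 47 genes, against 24.3% and 19.5% of the other probes, and chromosome 2 holds 4.26% against 19%.

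Probes at 0.1 or less were somewhat more frequent among single-gene probes (6.94%) than among probes with several genes (5.17%) or none (4.64%). Within 5 probe numbers of a member, 8.26% of probes were at 0.1 or less, against 5.05% around other single-gene probes. Probes with numbers 1537 to 2048 held 35 of the 180 probes at 0.1 or less and those with numbers 4097 to 4608 held 32, while the other blocks of 512 numbers held 12 to 23. The array's layout is in none of the sources used here, so what probe numbers share was not tested.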

How the data were processed

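The authors deposited 1 intensity per probe and sample, linear and never below 0, for 3439 probes in 12 root samples (6 aap3, 6 WT). The scanner, background correction, normalization and array layout are in none of the sources used here. Samples were grouped and numbered by their titles. Genes were named from GEO's platform annotation and the TAIR10.1 gene table, in which 690 of 692 single-gene probes matched a locus.

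The members, gene lists and alternatives were chosen with earlier results of these data known. The text names every member and the 5 single-gene probes just above the limit. Relatives were to be named by protein likeness, which was not run, as no protein sequences were used here. Functions given are textbook background.

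For the fit across all probes, each sample was divided by its median, floored at the 5th percentile of positive values (0.2 times the median; 9.95% of values), taken to log2, quantile normalized and tested in R 4.3.3 with limma 3.58.1 (lmFit, eBayes), with Benjamini-Hochberg adjustment, and was tested on simulated data. Same-numbered samples deviated together from their group means (correlations of 0.73 to 0.75). Samples with different numbers were not compared in this way, so these correlations do not show that the numbers pair the samples. Replicate pairs in the text are pairs by number only. The fit was run without the replicate number and, as an alternative, with it as a block. Precision is limited by how many samples there are, and p-values measure only the spread between these samples.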

Additional observations from a re-analysis of the deposited data

Results flagged for a closer look

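In 27 of 56 checks of 6 samples, 1 sample lay far above the other 5 of its genotype. For normally distributed values, chance gives about 1 in 20 with a far sample at either end, above or below. Most readings of these genes are exactly 0, so any lone reading meets this measure. In 16 of the 27 the other 5 samples were all at 0.

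Among aap3 samples, replicate 1 stood out for AT4G23060 (0.086), AT1G21350 (0.0499), AT3G47080 (0.0192) and AT4G02580 (0.015). Replicate 3 did for AT5G13410 (0.00463), and replicate 4 for AT5G65220 (0.0804) and AT1G05860 (0.0541). Replicate 5 did for AT1G29040 (0.0943), AT2G27680 (0.0903), AT2G45500 (0.017) and AT1G67820 (0.017), and replicate 6 for AT1G64790 (0.0265) and AT5G46420 (0.0193).

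Among WT samples, replicate 1 stood out for AT5G39410 (0.0352) and AT1G20130 (0.0066), replicate 2 for AT1G21350 (0.0329) and AT5G36120 (0.011), and replicate 4 for AT5G65220 (0.0601). Replicate 5 did for AT5G14590 (0.0693), AT1G12800 (0.0586), AT5G25510 (0.0265), AT2G45500 (0.013), AT2G27680 (0.00904) and AT1G07970 (0.00235). Replicate 6 did for AT5G46420 (0.0391), AT1G64790 (0.0368) and AT1G67820 (0.00446). The same replicate number was the far one in both genotypes for AT5G65220, AT1G64790, AT5G46420, AT2G45500 and AT2G27680. What these samples share was not tested.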

How the results depend on the processing

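The number of genes taken by the rule was 47. It was 19 when only values of exactly 0 counted, 32 with a limit of 0.05 and 78 with a limit of 0.2, which follows from the nesting of the limits. With a limit of 0.2 times the sample median it was again 47, of which 46 were shared. Leaving out each sample in turn gave 47 to 49. The count of 8 genes above 0 in a single genotype was the same with limits of 0.05 and 0.2. This was fixed in advance, since these 8 genes read at most 0.0405 and all probes with such a pattern stayed at 0.1 or less. On leaving out each sample the count was 6 to 11. Counting only values above 0.01, a choice made after seeing the data, gave 7, of which 5 were shared. Without replicates 5 and 6, also chosen after seeing the data, 49 genes met the rule and 10 were above 0 in a single genotype. Over all probes limma called 172, and 128 to 189 on leaving out each sample, 182 with median scaling only and 142 without probes at the floor in all samples. It called 587 with the replicate block and 281 with deposited values without scaling; the cause was not tested. Of the 47 genes 0 were called by limma under these settings, which shows nothing about them: each setting raises the lowest values to a floor, and leaving out probes at the floor in all samples removes 46 of the 47 from the fit. Signal over background was not used here.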
